A study of Mus musculus with 6 samples.

Results

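Genes of membrane and vesicle traffic were followed in mouse embryonic stem (ES) cells with raised Prdm14. They were chosen by name, as every gene whose symbol in the platform's annotation starts with Rab, Stx, Vamp, Snx or Vps followed by a digit, and they were tested where a probe stood above the negative control beads on 3 or more of 6 arrays, at a detection p under 0.01. This gave 112 of the 8529 genes tested, namely 51 Rab, 11 Stx, 5 Vamp, 21 Snx and 24 Vps genes, out of 114 that were named by a probe. The cells were ES cells of a 129P2 background grown with serum. They derived from a Rex1-GFPd2 reporter line, as given in the methods. One group carried Prdm14 overexpression and the other a control vector, with 3 Illumina Mouse WG-6 arrays each. The 3 replicates were consecutive passages, which is the spread that p-values measure here, and whether they represent several lines is not stated in the labels. In bulk RNA, fewer cells expressing a gene and less RNA per cell cannot be told apart.

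Membrane traffic moves proteins between compartments in vesicles. Rab proteins are small GTPases that mark each membrane and recruit tethers and motors, and SNARE proteins then fuse the vesicle with its target: syntaxins (Stx) mostly sit on the target membrane and VAMP proteins mostly on the vesicle. Sorting nexins (Snx) bind phosphoinositides on endosomes and sort cargo, many of them together with retromer. Vps genes, named after yeast mutants in vacuolar protein sorting, encode subunits of retromer, of the HOPS and CORVET tethers, of the GARP and EARP tethers and of the ESCRT machinery that buds vesicles into endosomes. Most of these proteins serve every cell, whereas some Rabs and syntaxins serve the apical membrane of epithelia, neuronal secretion or pigment granules.

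The sequence upstream of the listed start site is shown for the 5 genes past the threshold that matched RefSeq's promoter table (assembly GRCm38.p6), because their differences carry the comparison below. Each run holds the 250 bases before the start, 5′ to 3′ on the gene's strand. Capitals mark matches, on either strand, to the GC box (GGGCGG), the CCAAT box (CCAAT), the TATA box (TATAAA), the E-box CACCTG and the motif GGTCTCTAA known for PRDM14 binding. For Rab15, which has several listed starts, the window with the most GC boxes is printed.
Stx3 promoter, chr19:11819404-11819653, minus strand: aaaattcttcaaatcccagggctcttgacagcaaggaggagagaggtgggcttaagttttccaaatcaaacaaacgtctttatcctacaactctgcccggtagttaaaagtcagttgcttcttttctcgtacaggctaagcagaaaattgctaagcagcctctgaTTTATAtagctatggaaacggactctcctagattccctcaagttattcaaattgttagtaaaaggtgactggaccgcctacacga
Rab25 promoter, chr3:88548280-88548529, minus strand: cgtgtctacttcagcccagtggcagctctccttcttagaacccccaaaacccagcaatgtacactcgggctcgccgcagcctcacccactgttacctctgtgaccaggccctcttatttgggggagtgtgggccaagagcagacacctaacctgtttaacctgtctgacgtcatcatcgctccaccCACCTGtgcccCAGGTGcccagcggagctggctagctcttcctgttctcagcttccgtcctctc
Rab31 promoter, chr17:65772753-65773002, minus strand: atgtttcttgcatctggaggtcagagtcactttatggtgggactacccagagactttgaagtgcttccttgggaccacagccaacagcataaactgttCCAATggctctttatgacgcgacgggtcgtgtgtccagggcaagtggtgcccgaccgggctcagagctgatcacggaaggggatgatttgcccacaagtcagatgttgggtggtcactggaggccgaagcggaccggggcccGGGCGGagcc
Rab15 promoter, chr12:76822525-76822774, minus strand: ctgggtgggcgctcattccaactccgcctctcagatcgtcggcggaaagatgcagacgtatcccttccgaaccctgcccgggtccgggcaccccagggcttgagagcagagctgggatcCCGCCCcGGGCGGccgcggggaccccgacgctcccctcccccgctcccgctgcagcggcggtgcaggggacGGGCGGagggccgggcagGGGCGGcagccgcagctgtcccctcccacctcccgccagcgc
Rab6b promoter, chr9:103111824-103112073, plus strand: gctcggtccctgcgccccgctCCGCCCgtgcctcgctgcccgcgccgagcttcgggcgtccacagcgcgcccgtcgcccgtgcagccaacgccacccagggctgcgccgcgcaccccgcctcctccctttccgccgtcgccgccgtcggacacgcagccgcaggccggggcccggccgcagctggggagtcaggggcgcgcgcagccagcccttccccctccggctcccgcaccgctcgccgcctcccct

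The printed windows differed in composition. That of Stx3 was 42.0% G and C with 6 CpG sites, and that of Rab6b was 80.8% G and C with 40 CpG sites. The Stx3 window held a match to the TATA box letters on the opposite strand (TTTATA), 85 to 80 bases before the start. The Rab25 window held 2 CACCTG E-boxes. The Rab15 window, chosen for its GC boxes, held 4 of them and was 75.2% G and C. The other Rab15 windows held 1 GC box or none, at 46.4% to 55.6% G and C. Among the 104 windows of the 87 tested members in the table, 66.3% held a GC box, against 32.7% of all 32851 windows of the same length, and the median number of CpG sites was 18 against 6. Tested members had to be detected in these cells, whereas the 32851 windows cover genes whether detected or not. Of the 8 windows of the 5 genes past the threshold, 50% held a GC box, and their median number of CpG sites was 7. Rab15 gave several of these 8 windows and each other gene gave 1. The shares with a CCAAT box were 38.5% of member windows and 33.8% of all, those with a TATA box 4.81% and 12.4%, and those with the E-box 14.4% and 17.2%. The PRDM14 motif was found in the window of 1 member, the endosomal Rab gene Rab14 (0.962% of member windows against 0.240% of all), and Rab14 itself had a log2 difference of 0.08 ± 0.12 (SE over 3 arrays a group; adjusted p by limma = 0.760). None of these letter matches is a measured binding site. No entry was matched for Rab38 and Snx24.

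Prdm14 was raised 14.5-fold on the overexpression arrays (log2 difference 3.86 ± 0.12, SE, n = 3 per group; limma adjusted p = 1.01e-06), in the direction its labels give. Between 169 and 173 of the 179 probes naming these traffic genes were detected on each array. Probes detected on no array were brighter on the overexpression arrays (median signals 73.3 to 81.2) than on the control arrays (59.6 to 62.8), and values below are log2 signals after background correction and quantile normalization, with raw signals for changed genes whose groups overlapped before it. All 8 ES cell markers examined were detected, Pou5f1, Nanog and Sox2 among them. The fibroblast markers Col1a1, Col1a2, Col3a1, Lum and Dcn and the primitive endoderm markers Gata4, Gata6, Sox17, Foxa2, Dab2 and Pdgfra had no tested probe.

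Of the 112 traffic genes, 6 passed as lower and 1 as higher in overexpressing cells. The lower genes were the syntaxin gene Stx3, the sorting nexin gene Snx24 and the Rab genes Rab15, Rab38, Rab25 and Rab31, and the higher gene was Rab6b. The calls made up 6.25% of the members, against 4.34% of all genes tested (limma, adjusted p under 0.01). By direction they made up 5.36% lower, against 2.67% of all genes, and 0.893% higher, against 1.66%. Rab38 entered through the control arrays alone, and among genes detected on all 6 arrays 5 members fell and 1 rose (5.61%, against 3.65% of all such genes). With the replicate number as a block the share of members called was 6.25%, against 5.90% of all genes. These shares rest on few genes, were not tested against each other, and describe a list chosen with earlier results known. The median member differed by -0.01, as did all genes by -0.002, and 76.8% of members lay within 0.25 of 0 on the log2 scale, against 71.5% of all genes. With median scaling in place of quantile normalization, the median gene shifted to 0.11 and the split to 5 lower and 3 higher members (154 lower and 222 higher among all genes).

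**Figure D1:**
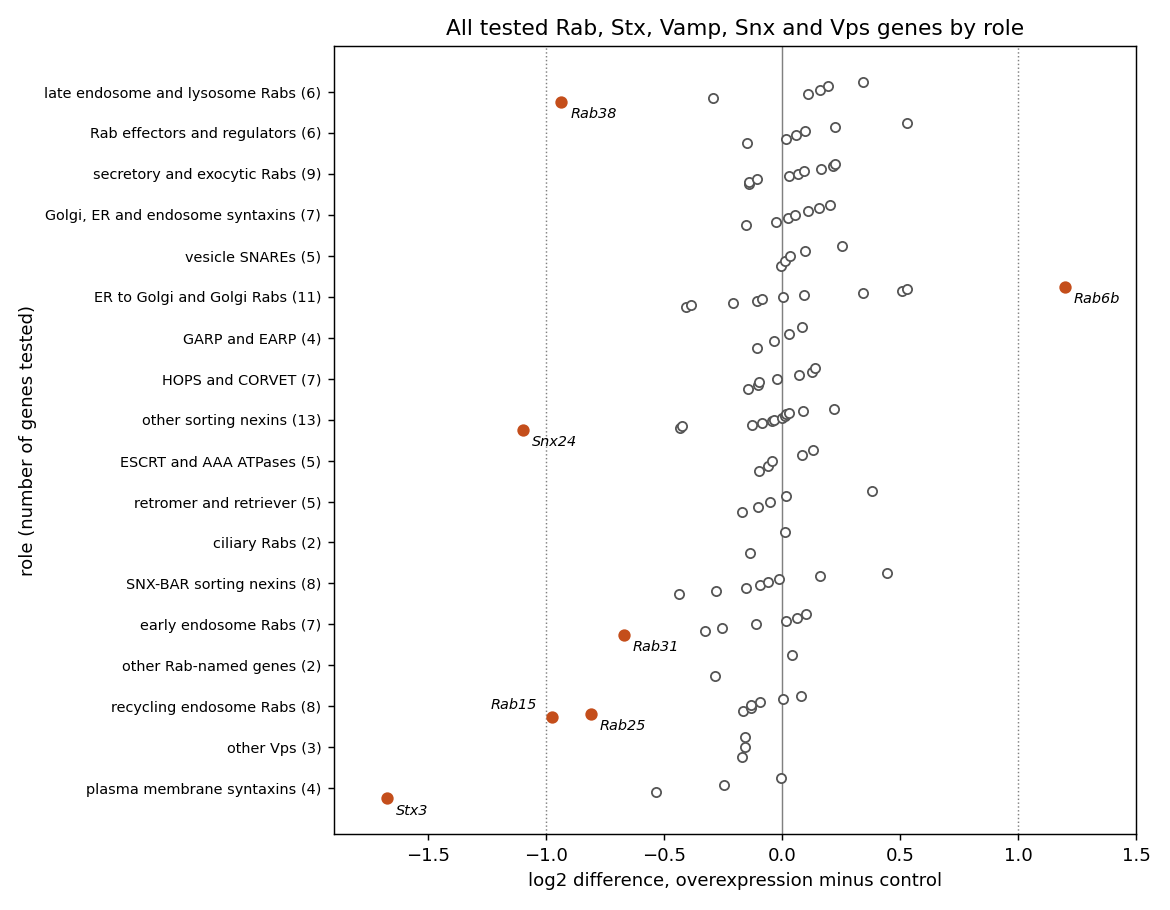
Log2 difference (overexpression minus control, horizontal axis) of each of the 112 tested genes, grouped by role (vertical axis, with the number of genes); filled points are the 7 genes past an adjusted p of 0.01 and dotted lines mark 1 log2 unit. Most points lie close to 0, and Stx3 (-1.68) and Rab6b (1.20) lie farthest out.

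Of the 112 members, Stx3 had the largest decrease. Syntaxin 3 is the SNARE of the apical plasma membrane in epithelial cells. Its normalized log2 values were 7.73, 7.79 and 7.81 on overexpression arrays 1, 2 and 3 and 9.62, 9.33 and 9.41 on control arrays 1, 2 and 3. The overexpression arrays lay within 0.1 of each other, and every control array was more than 1 log2 unit higher. The difference was -1.68 ± 0.11 (SE over 3 arrays a group; adjusted p by limma = 7.18e-05), or 3.20-fold. The other Stx3 probe gave -1.30 ± 0.10 and also passed. The call held without any 1 array (limma adjusted p from 0.000264 to 0.000942).

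The other plasma membrane syntaxins did not pass. Stx1a, the syntaxin of neuronal exocytosis, gave 6.86, 6.76 and 6.99 with overexpression and 7.42, 7.15 and 7.63 in controls. After normalization all control arrays were above all overexpression arrays, and the difference was -0.54 ± 0.13 (SE over 3 arrays a group, adjusted p by limma = 0.0398). The raw Stx1a signals overlapped (219, 162 and 195 with overexpression against 193, 169 and 248 in controls). The Stx1a difference was -0.23 (0.0632) in the deposited log2 table with matched columns, and its adjusted p was 0.154 with median scaling. Stx4a, which serves the basolateral and general cell surface, differed by -0.01 ± 0.10, with a 95% interval from -0.23 to 0.21, and Stx11, a syntaxin of immune cell secretion, differed by -0.24 ± 0.12 (0.275). The 7 syntaxin genes of Golgi, ER and endosomes (Stx5a, Stx6, Stx7, Stx8, Stx12, Stx17 and Stx18) ranged from -0.15 to 0.20 and none passed, with none at an unadjusted p under 0.05. The other, dimmer Stx5a probe gave 0.38 ± 0.09, with groups that did not overlap, and did not pass 0.01 (limma p adjusted over probes = 0.0392). Among the vesicle SNARE genes Vamp2, Vamp3, Vamp4, Vamp7 and Vamp8 none passed with limma, with 1 at an unadjusted p under 0.05. That was Vamp4, a SNARE of traffic between endosomes and the trans-Golgi, at 0.25 ± 0.10 (0.160).

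**Figure D2:**
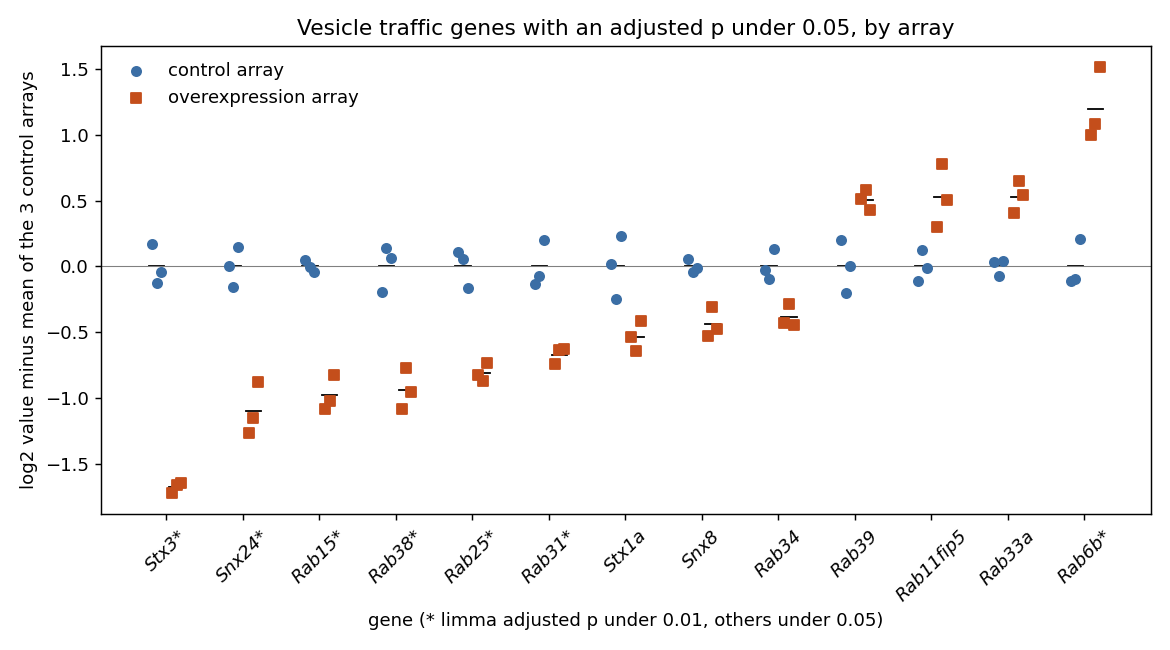
Normalized log2 value of each array minus the mean of the 3 control arrays (vertical axis) for the 13 genes with an adjusted p under 0.05, with control arrays as circles, overexpression arrays as squares and group means as short lines. In each of the 13 genes the groups do not overlap, and the overexpression arrays lie between -1.72 and -0.29 or between 0.30 and 1.51.

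Among the Rabs of the recycling endosome, which return cargo to the surface, Rab15 and Rab25 fell. Rab15, known from endocytic recycling, gave 8.98, 9.05 and 9.24 on overexpression arrays 1 to 3 and 10.11, 10.06 and 10.03 on control arrays 1 to 3. The control arrays lay close together and above every overexpression array. The difference was -0.98 ± 0.10 (SE over 3 arrays a group; adjusted p by limma = 0.000862), or 1.97-fold lower, and the call held without any 1 array. Rab25, the epithelial member of the Rab11 family, which carries cargo to the apical surface, gave 7.57, 7.52 and 7.66 against 8.50, 8.45 and 8.23. Its groups did not overlap either, at -0.81 ± 0.11 (limma adjusted p = 0.00232), or 1.76-fold lower. The Rab25 call was lost without overexpression array 1 (limma adjusted p = 0.0125) or 2 (0.0102) or control array 1 (0.0136), and its other probe gave -0.49 ± 0.11 and did not pass. With the columns of the deposited log2 table matched to arrays, the Rab25 difference was -0.48.

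The broadly used relatives of Rab25 gave no call. Rab11a differed by -0.09 ± 0.27 (SE over 3 arrays a group; adjusted p by limma = 0.895), an estimate whose 95% interval ran from -0.72 to 0.53, and Rab11b differed by -0.13 ± 0.10 (0.503), with an interval from -0.37 to 0.11. Rab4a and Rab4b, which act in fast recycling, gave 0.00 and -0.16, Rab14 gave 0.08 and Rab35 gave -0.13, and none passed. Of the Rab11 effector genes, Rab11fip5 gave 9.24, 9.72 and 9.44 with overexpression and 8.83, 9.06 and 8.93 in controls. Its groups did not overlap, at 0.53 ± 0.14 (limma adjusted p = 0.0425; 0.00953 with median scaling and 0.00951 with trended robust variances). The other probe of Rab11fip5 gave 0.54 ± 0.15. Rab11fip3 and Rab11fip4 differed by 0.02 and 0.06.

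Of the Rabs of the early endosome, Rab31 fell. Rab31, a relative of Rab5 that acts between the trans-Golgi and endosomes, gave 9.23, 9.33 and 9.34 on overexpression arrays 1 to 3 and 9.84, 9.90 and 10.17 on control arrays 1 to 3. After normalization every control array was the brighter, and the difference was -0.67 ± 0.11 (SE over 3 arrays a group; adjusted p by limma = 0.00702), or 1.59-fold. The raw signals overlapped, with 837 on overexpression array 1 and 812 on control array 1. This call was the weakest of the 7, and it was lost without any 1 of the 6 arrays (limma adjusted p from 0.0154 to 0.0320), with median scaling (0.0264) and without the detection filter (0.01005). Rab21 and Rab22a, which also act on early endosomes, differed by -0.33 ± 0.12 (0.121) and -0.26 ± 0.13 (0.272). Rab5a, Rab5b and Rab5c, which drive fusion of early endosomes, differed by -0.11, 0.06 and 0.10, and the 3 Rab5a probes did not share a sign.

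**Figure D3:**
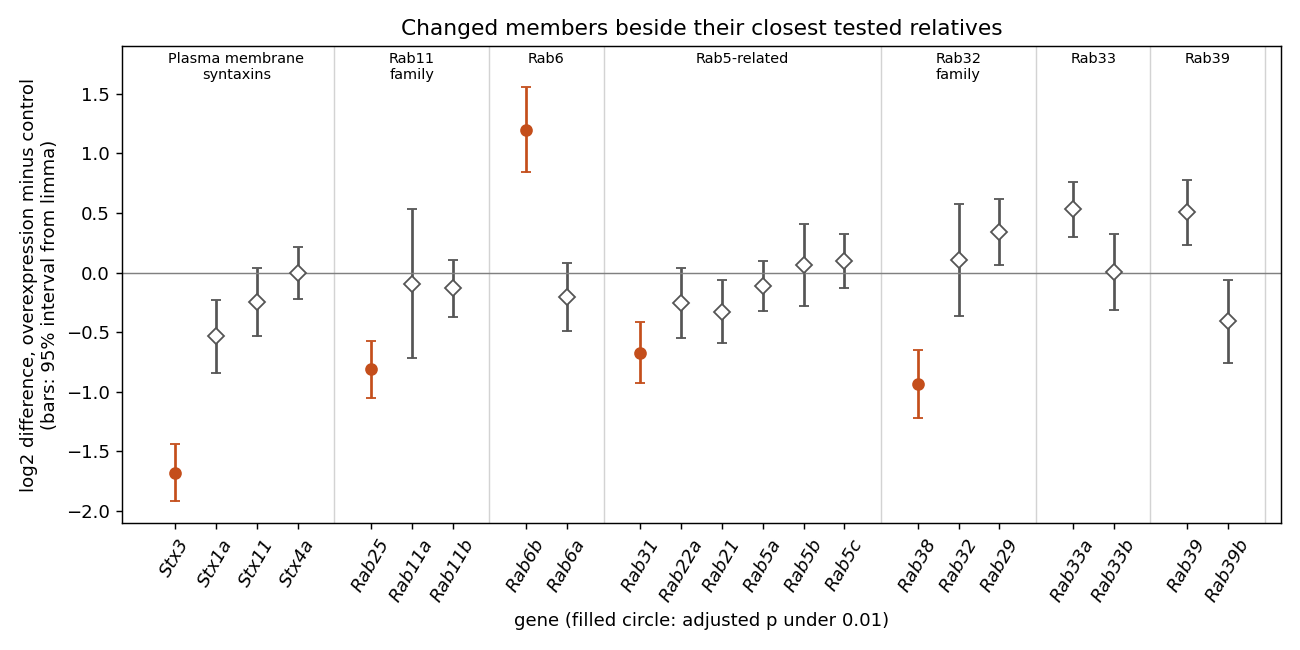
Log2 difference (overexpression minus control, vertical axis) with the 95% interval from limma for changed genes and their closest tested relatives, n = 3 arrays per group. Rab15 and Snx24 are not shown. Filled circles passed an adjusted p of 0.01. Stx3, Rab25, Rab31 and Rab38 lie below 0 and Rab6b above it. The intervals of Stx4a, Stx11, Rab11a, Rab11b, Rab6a, Rab22a, Rab5a, Rab5b, Rab5c, Rab32 and Rab33b include 0. Those of Stx1a, Rab21, Rab29, Rab33a, Rab39 and Rab39b exclude 0, though none of these genes passed. Differences between relatives were not tested.

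In the late endosome and lysosome group, Rab38 passed the threshold. It acts with its relative Rab32 in the making of melanosomes and other lysosome-related organelles. Rab38 gave 5.32, 5.63 and 5.45 on overexpression arrays 1 to 3, none of them above background, and 6.21, 6.54 and 6.47 on control arrays 1 to 3, all of them above background. Rab38 was thus at least 1.20-fold lower on this scale, a bound set by the lowest signal detected on each overexpression array (measured difference -0.94 ± 0.13, SE, n = 3 per group; limma adjusted p = 0.00268). The difference was -0.52 without background correction. Since Rab38 entered the test only through the group where it was high, its p does not stand as support for a decrease. The raw signals overlapped (112, 106 and 104 against 111, 128 and 139), and the call was lost in the deposited log2 table with columns matched to arrays (-0.24; adjusted p = 0.0330) and without overexpression array 1 (0.0137) or 3 (0.0101) or control array 3 (0.0128). Rab32 differed by 0.11 ± 0.21 (0.821) and Rab29, the third of this family, by 0.34 ± 0.12 (0.123). Rab7, which governs late endosomes and lysosomes in most cells, differed by 0.16 ± 0.09 (0.330), Rab9 by 0.19 ± 0.09 (0.223) and Rab12 by -0.30 ± 0.10 (0.110).

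Rab6b rose, the single increase among the members. Rab6b is the neuron-enriched form of Rab6, which directs traffic within the Golgi and back to the ER. Its values were 7.39, 7.48 and 7.91 on overexpression arrays 1 to 3 and 6.29, 6.30 and 6.61 on control arrays 1 to 3. The lowest overexpression array was above the highest control array, and the probe was detected on all 6 arrays. The difference was 1.20 ± 0.16 (SE over 3 arrays a group; adjusted p by limma = 0.00226), or 2.29-fold. It was 0.83 without background correction and 0.49 in the deposited log2 table with columns matched to arrays, and the call was lost without control array 1 (limma adjusted p = 0.0138). Rab6a, the ubiquitous form, differed by -0.21 ± 0.13 (0.369), and none of its 3 probes passed.

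Other Rabs grouped with ER and Golgi traffic did not pass 0.01. Rab33a, a Golgi-associated Rab expressed in brain and lymphoid cells, gave 8.40, 8.64 and 8.54 with overexpression and 8.03, 7.93 and 8.04 in controls. No overexpression array came down to the control range, and the difference was 0.53 ± 0.10 (SE over 3 arrays a group; adjusted p by limma = 0.0122). Rab33a passed with 5 of the alternatives, among them no background correction (0.00672) and median scaling (0.00384). Its relative Rab33b, which takes part in autophagosome formation, differed by 0.00 ± 0.14. Rab39 gave 6.66, 6.72 and 6.57 against 6.34, 5.94 and 6.15, a difference of 0.51 ± 0.12 (0.0319), with detection on 1 of 3 control arrays. The Rab39 difference was 0.15 (0.159) in the deposited log2 table with matched columns and 0.30 without background correction. Rab34, which acts at the Golgi and in the building of cilia, differed by -0.39 ± 0.10 (0.0486), while its other probe gave -0.10. The raw Rab34 signals overlapped (765, 626 and 629 with overexpression against 650, 647 and 853 in controls). Rab1a and Rab1b, which drive transport from ER to Golgi, differed by 0.34 ± 0.13 (0.142) and -0.11 ± 0.10 (0.594), Rab2a by -0.08 and Rab18 by 0.09. The other Rab1b probe had the opposite sign, at 0.35 ± 0.12, and did not pass.

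None of the Rabs grouped as secretory and exocytic passed. The 9 tested genes, Rab3a, Rab3d, Rab8a, Rab8b, Rab10, Rab13, Rab26, Rab27a and Rab40c, ranged from -0.14 to 0.22, and with limma none reached an unadjusted p under 0.05, against 24.2% of all genes. Rab8a, which delivers vesicles to the plasma membrane and the primary cilium, differed by 0.03 ± 0.10 (SE over 3 arrays a group), and Rab27a, which docks secretory lysosomes and exosome-bearing endosomes, by 0.07 ± 0.10. The ciliary Rabs Rab23, a negative regulator of Hedgehog signalling, and Rab28 gave 0.01 ± 0.22 and -0.14 ± 0.11. Rab3gap1 and Rab3gap2, the subunits of a complex that acts on Rab3 and Rab18, gave 0.10 and 0.22, and Rab3ip, an exchange factor for Rab8, gave -0.15 ± 0.21.

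Snx24 was the changed sorting nexin. It encodes a small protein with little beyond a phosphoinositide-binding PX domain. Its values were 7.96, 8.07 and 8.34 on overexpression arrays 1 to 3 and 9.23, 9.07 and 9.37 on control arrays 1 to 3. The groups stood well apart, at -1.10 ± 0.13 (SE over 3 arrays a group; adjusted p by limma = 0.00147), or 2.14-fold lower, and the call held without any 1 array (0.00181 to 0.00975). Snx8, a membrane-bending sorting nexin of endosome-to-Golgi traffic, gave 9.46, 9.69 and 9.52 against 10.05, 9.95 and 9.98, a difference of -0.44 ± 0.10 (0.0263). The Snx8 groups did not overlap after normalization, though the raw signals did (964, 845 and 828 with overexpression against 932, 931 and 1072 in controls). Snx8 passed in the deposited log2 table with columns matched to arrays (limma adjusted p = 0.00498) and with trended robust variances (0.00626). Snx11 differed by -0.43 ± 0.13 (0.0655), Snx1, a partner of retromer, by 0.44 ± 0.14 (0.0777) and Snx30 by -0.28 ± 0.09 (0.102). Snx2 and Snx6, which like Snx1 form the membrane-bending part of the retromer coat, differed by -0.10 and -0.06. The remaining sorting nexins that were measured lay between -0.42 and 0.22, with Snx17 and Snx27, which recycle receptors from endosomes, at 0.01 and -0.09. The other Snx17 probe gave 0.32 ± 0.13 and did not pass.

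None of the 24 Vps genes passed with limma, 1 reached an unadjusted p under 0.05, and 23 (95.8%) lay within 0.25 of 0 on the log2 scale. Over all genes 4.34% passed, 24.2% reached that unadjusted p and 71.5% lay within 0.25, and the difference from these shares was not tested. The exception was Vps26c, a subunit of the retriever complex, at 0.38 ± 0.12 (SE over 3 arrays a group; adjusted p by limma = 0.0899), whose other probe gave 0.15. The retromer core genes Vps26a, Vps29 and Vps35 differed by -0.10 ± 0.10, -0.17 ± 0.10 and 0.02 ± 0.09. The 7 HOPS and CORVET genes, which tether late and early endosomes, ranged from -0.15 to 0.14. The 4 GARP and EARP genes ranged from -0.11 to 0.08, and the 5 ESCRT and AAA ATPase genes from -0.10 to 0.13, with Vps28 at -0.06 and Vps4a at 0.13. Vps13b, a lipid transfer protein of the Golgi, differed by -0.16, as did Vps72, which despite its name is a subunit of a chromatin remodeller. Another name-only member, Rab26os, a transcript from the strand opposite Rab26, differed by -0.29 ± 0.10 (0.110).

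Counted over all members, the 2 groups of arrays did not overlap for 32 genes (28.6%), 15 higher and 17 lower, against 29.9% of all genes tested. At an adjusted p under 0.05, 13 members passed (11.6%), 4 higher and 9 lower, against 9.88% of all genes (4.47% higher and 5.42% lower). Several probes were tested for 43 members. Their signs differed within a gene for 22, but in 20 of these every probe lay within 0.25 of 0. At the limit of the rule, Rab38, Rab39b and Snx21 were detected on exactly 3 arrays. Rab39b gave 6.20, 5.76 and 5.89 with overexpression and 6.38, 6.12 and 6.57 in controls, and Snx21 gave 5.55, 5.49 and 6.62 against 6.27, 6.11 and 6.54, each with overlapping groups. Just outside it, Rab11fip2 and Vps37c were detected on 1 array each and were not tested.

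Of 213 genes listed for coats, Arf GTPases, clathrin adaptors, other SNAREs, tethers, other ESCRT subunits and Rab regulators, 160 were tested, 2 fell and none rose (1.25% called, against 4.34% of all genes, with a median difference of 0.01; limma, with 21 at an unadjusted p under 0.05, or 13.1% against 24.2%). Both that fell belong to clathrin coats. Cltb, a clathrin light chain gene, gave 8.02, 7.75 and 7.51 with overexpression and 9.28, 9.40 and 9.24 in controls, a difference of -1.55 ± 0.14 (SE over 3 arrays a group; adjusted p by limma = 0.000338). Ap1m2, which encodes the medium subunit of the epithelial AP-1B adaptor, was not above background on any overexpression array and was at least 1.58-fold lower (measured difference -1.53 ± 0.21; 0.00298). Ap1m2 entered the test through the control arrays alone, and without such genes, at detection on all 6 arrays, 1 of these traffic genes fell. No gene of the COPI and COPII coats, the exocyst and other tethers or the Rab regulators passed.

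Epithelial, fibroblast, neural and primitive endoderm markers were read beside these values. The paper places the epithelial marker Cldn6 among genes of a differentiation-primed state in ES cells. Of 8 tested among 10 epithelial markers, 6 passed as lower, and their summed normalized signal was 1958 to 2070 on overexpression arrays and 5489 to 6372 on control arrays. Lad1 and Krt18 among them were not above background on any overexpression array and entered the test through the control arrays alone. Esrp1, Cldn4, Cldn6 and Krt8 were detected on all 6, and Epcam and Krt19 had no tested probe. Cdh1 differed by -0.45 ± 0.12 (limma adjusted p = 0.0490) and Cldn7 by 0.15, and neither passed. Of the fibroblast markers with a tested probe, Acta2, detected on control arrays alone, passed as lower, Fbln2 rose and Thy1 did not pass, and their sum was 580 to 707 and 576 to 754 on overexpression and control arrays. The neural markers summed to 471 to 536 and 546 to 605, where Map2 fell, and the primitive endoderm markers Sox7 and Lama1 summed to 633 to 875 and 894 to 1296, where neither passed. The part of these markers in the decreases of Stx3 and Rab25 was not tested.

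**Figure D4:**
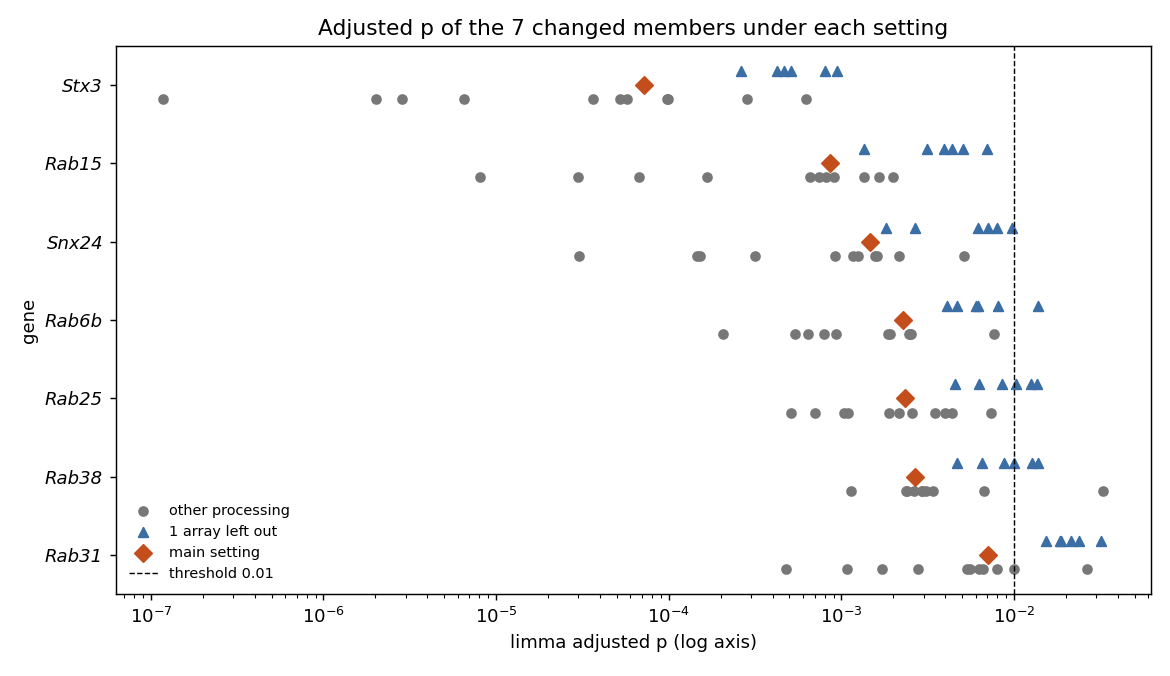
Limma adjusted p (horizontal log axis) of the 7 changed genes (vertical axis) in the main setting (diamonds), with 1 array left out (triangles) and under the other processing alternatives (circles), except the deposited values under their deposited sample names and the updated symbols; the dashed line is the threshold of 0.01. Stx3, Rab15 and Snx24 stay left of the line in all settings shown, and Rab31 crosses it in each of the 6 settings that leave out 1 array.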

How the data were processed

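Total RNA of 6 mouse ES cell samples was hybridised to Illumina BeadChips of 45281 probes. The authors deposited the average bead signal intensity of each probe, not background-corrected or normalized, with a detection p-value against negative control beads, and a table of log2-like values that the authors made with lumi (version not given). The columns of that second table correlate best with arrays other than those named for 4 of 6 samples, 2 of them in the other group, so it served only as an alternative, both as deposited and with columns matched to arrays (r = 0.941 to 0.967). The number of arrays limits the precision.

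Signals were processed in R 4.3.3 by limma 3.58.1 (neqc: normexp from detection p-values with offset 16, then quantile normalization and log2). Of the 14604 probes detected on at least 3 arrays, 12679 had 1 gene symbol in the platform annotation and 1925 several or none. A gene was its brightest tested probe. The groups were compared with lmFit and eBayes over all tested probes, with Benjamini-Hochberg adjustment over the 8529 genes and the study's threshold of 0.01. The main fit had no block. Deviations of arrays with the same replicate number correlated (r = 0.121, 0.390 and 0.324), and those with different numbers gave r from -0.311 to 0.0582. A fit with the replicate numbers as pairs, by a block, was therefore run as an alternative only. Named were members past 0.01 or 0.05, the 10 largest differences, the brightest member of each role, members with another probe past 0.01 and those at the detection limit, and further members to complete each role after their values were seen. Members and lists were chosen with earlier results of these data known.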

Additional observations from a re-analysis of the deposited data

Results flagged for a closer look

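Rab11fip2, which encodes an effector of Rab11 and was not tested, was above background on 1 overexpression array (array 1 to 3: raw signals of 140, 132 and 109) and on no control array (90.4, 84.7 and 113), in data outside the comparison. Probes detected on no array were also brighter on the overexpression arrays. After normalization the Rab11fip2 groups overlapped, at log2 values of 5.85, 6.26 and 5.59 with overexpression and 5.66, 5.41 and 5.96 in controls.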

How the results depend on the processing

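The 6 decreases and 1 increase among the members were the same 7 genes with an offset of 50, no background correction, cyclic loess, trended robust variances, averaged probes, updated symbols, the replicate block (adjusted p from 0.000282 to 0.00533) and adjustment over probes, where some settings added others. Increases numbered 2 with an offset of 50, without background correction and in the deposited values matched to arrays, 3 with median scaling and with trended robust variances, and 4 at a threshold of 0.05, which was chosen after the data were seen, as was adjustment over probes. Leaving out 1 array gave 3 to 5 decreases and 0 to 1 increases, with 3 decreases without overexpression array 1 and no increase without control array 1. All genes past the threshold numbered 143 to 231 with 1 array left out, 616 with trended robust variances, 503 with the replicate block and 843 at 0.05. The deposited values under their deposited sample names, where 2 columns stand in the other group, gave 0 calls for members, other traffic genes and all genes, and 1.40 for Prdm14. Among other traffic genes 1 fell without the detection filter and with detection on all 6 arrays, 1 to 2 with 1 array left out (1 without overexpression array 1 or control array 1), and 2 rose at 0.05. The median of the members was 0.10 with median scaling and -0.0530 to -0.000424 with 1 array left out.

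Signs turned for uncalled genes near 0. With averaged probes the differences were 0.0480 for Rab5a, 0.0713 for Stx4a and -0.0411 for Vamp3. With median scaling they were 0.14 for Stx4a and 0.00406 for Vps16. Under the deposited sample names they were -0.0327 for Rab8a, -0.00610 for Snx17, 0.00990 for Snx2, 0.0110 for Stx4a and 0.0672 for Vps16. With 1 array left out they ranged from -0.0108 to 0.14 for Rab5if, -0.0229 to 0.0883 for Rab8a, -0.0701 to 0.0820 for Snx17, -0.0445 to 0.0456 for Stx4a, -0.00112 to 0.0277 for Vamp3 and -0.00641 to 0.0844 for Vps54. The causes were not tested.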
